A study of Mus musculus with 2 samples.

Results

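The genes followed here encode the main parts of the basement membrane of blood vessels and a protein that binds to it. They are Col4a1, Col4a2, Lama4, Lama5, Lamb1, Lamc1, Nid1, Hspg2, Sparc and Col18a1, that is 10 of the 32285 genes counted, and they were named as a list of membrane genes, with earlier results of these data known. Endothelial cells (ECs) were sorted from YUMMER1.7 tumors, grown from a mouse melanoma line with many added mutations, in female mice aged 8 to 10 weeks. The control library carries the genotype label C57BL/6, and the study's methods describe its control mice as carrying the Cdh5 Cre and the ZsGreen reporter without floxed Dnmt1. The Dnmt1iECKO library came from Cdh5CreERT2;Dnmt1fl/fl;ZsGreenlsl/lsl mice, in which tamoxifen switches on a Cre recombinase driven by the Cdh5 promoter, so that Dnmt1, the maintenance DNA methyltransferase, is deleted in ECs of every organ and not of the tumor alone. The sample labels describe tumors under the skin of the shoulder, whereas the methods of the study describe tumors in the lung after injection into the tail vein. Both libraries held alveolar epithelial cells.

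Live CD31+CD45- cells from 3 pooled mice gave 1 library of 3′ single-cell RNA counts per condition, so no difference between the conditions has a replicate check and no test was made. After filtering, 7764 control and 7839 Dnmt1iECKO cells were kept, with 29 cell barcodes present in both, and the deposited matrices held 123830489 and 141433493 unique molecules (UMIs). Levels are CPM values, the UMIs of a gene scaled to a total of 1000000 UMIs of all genes, summed over the cells of a class, and the 95% intervals in parentheses are exact Poisson intervals, which cover counting error only. ECs were cells with a UMI of Cdh5 or Pecam1 and none of Ptprc in a cluster that expressed endothelial markers, which left 4369 control and 1805 Dnmt1iECKO cells. Cdh5 stood at 1455 and 1402 CPM in them and Pecam1 at 1449 and 1369. Dnmt1 stood at 51.5 CPM in control ECs and at 28.1 in Dnmt1iECKO ECs, a log2 ratio of -0.87 with a counting interval that ended at -0.75. The sources used here do not say whether the counted 3′ end of Dnmt1 lies inside the deleted part, so this is a level and not a measure of deletion.

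The basement membrane is a thin sheet of matrix under every endothelium. Laminins, trimers of an alpha, a beta and a gamma chain, assemble on the cell surface and bind integrins and dystroglycan. Collagen IV forms a second, covalently linked network that gives the sheet its tensile strength. Nidogen and the heparan sulfate proteoglycan perlecan connect both networks, and collagen XVIII, whose C-terminal fragment is endostatin, carries heparan sulfate chains at the vessel wall. SPARC is a secreted glycoprotein that binds collagens and calcium and is made in quantity where matrix is being remodelled. Pericytes sit inside the same sheet and contribute to it, and in the lung alveolus the capillary and the alveolar epithelium lie on a fused membrane.

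Col4a1 and Col4a2 encode the chains that make up the collagen IV of vessels, and they lie head to head on chromosome 8. In the annotation of GRCm38 (mm10, the build used for the deposited counts), Col4a1 runs from chr8:11198423 to chr8:11312826 on the minus strand and Col4a2 from chr8:11312805 to chr8:11449287 on the plus strand, so that the first 22 bases of both transcribed regions are the same stretch of DNA. This stretch, chr8:11312805-11312826, is shown because the levels of the pair were followed together; it is given on the plus strand from RefSeq (GRCm38.p6), with the letters GGGCGG, the core of a GC box, in capitals.
Col4a1-Col4a2 overlap: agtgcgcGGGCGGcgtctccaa
The letters GGGCGG or CCGCCC were found in 35.7% of 32851 windows reaching from 250 bases before to 50 bases after a start site, and in 7 of the 9 windows of members, those of Col18a1, Col4a1, Col4a2, Hspg2, Lama5, Lamb1 and Nid1. CCAAT or ATTGG was found in 37.4% of all windows and in 5 of the 9, whereas TATAAA or TTTATA was found in 13.6% of all windows and in 0 of the 9. The windows covered 8 of the 10 members, without Lama4 and Lamc1. The Sparc window (chr11:55420031-55420330) lies inside the gene, so the annotated start given below was not searched. Col18a1 has a window at its annotated start and a further one inside the gene (chr10:77113656-77113955). The windows of Col4a1 and Col4a2 share 78 bases, and a match describes the letters only. The other members lie apart in the genome. Lama4 is at chr10:38965515-39110188, Col18a1 at chr10:77052178-77166548, Lama5 at chr2:180176373-180225859, Lamb1 at chr12:31265234-31329644, Lamc1 at chr1:153218922-153332786, Nid1 at chr13:13437551-13512269, Hspg2 at chr4:137468769-137570630 and Sparc at chr11:55394500-55423183. Other counted genes that overlap a member (Gm15418, Gm15419, Gm48682 and Slc19a1) each stood at 0.650 CPM or less in ECs.

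In ECs as a whole, Sparc and the collagen IV pair had the highest levels of the 10 genes, and the laminin beta chain gene Lamb1 had the lowest. Since only the 3′ end of a transcript is counted, levels are not divided by transcript length, and an order between genes also reflects how well each 3′ end is captured. Sparc stood at 959 CPM in control and 968 in Dnmt1iECKO ECs, and Col4a1 at 842 (835 to 850) and 879 (867 to 891). Col4a2 stood at 417 and 445, near a constant ratio to its partner of 2.02 UMIs of Col4a1 for each of Col4a2 (1.99 to 2.05) in control and 1.97 (1.93 to 2.02) in Dnmt1iECKO ECs. Nid1, the nidogen gene, followed at 126 and 125. Lamc1, the gamma chain of most laminins, stood at 57.9 and 62.5, and Lama5, an alpha chain of mature vessels, at 44.7 and 43.4. Lama4, the other alpha chain typical of vessels, stood at 31.2 and 45.6, Col18a1 at 17.5 and 24.1, Hspg2, which encodes perlecan, at 13.4 and 24.3, and Lamb1 at 8.23 and 12.4. The members summed to 2518 CPM in control and 2629 in Dnmt1iECKO ECs.

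Col4a1 and Sparc RNA was found in most ECs even when every cell was thinned to 2000 UMIs, which left 4099 control and 1672 Dnmt1iECKO ECs. At that depth Col4a1 had a UMI in 68.7% of control and 65.4% of Dnmt1iECKO ECs, Sparc in 62.2% and 62.6%, and Col4a2 in 48.0% and 47.4%. Lamb1 was at the other end, with a UMI in 1.07% and 0.957%. T cell-like cells, which should lack collagen IV, had a UMI of Col4a1 in 1.37% and 0.959% of cells and of Sparc in 2.74% and 2.33%, and B cell-like cells in 1.03% and 0.615% and in 3.09% and 2.92%. Summed over cells, Col4a1 stood at 10.9 and 2.07 CPM in T cell-like and at 19.5 and 20.2 in B cell-like cells, so the level outside the cells that make it differed between these classes. Lamb1 had a UMI in 0% and 0.137% of T cell-like cells. Lamc1 is different, because T cell-like cells carried it at 132 and 95.3 CPM and B cell-like cells at 124 and 97.6, above its level in all ECs, while their other members stood at 47.2 or less.

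The ECs were divided by marker genes into lung vessel classes and cell states. The members were left out of the genes used for clustering. General capillary-like ECs (1407 control and 486 Dnmt1iECKO cells) were led by Kit and Bmp6, aerocyte-like ECs (1387 and 457) of the gas-exchange capillary by Ednrb and Car4, and vein-like ECs (187 and 189) by Slc6a2 and Selp. Ubd-high ECs (209 and 145) had Ubd, a ubiquitin-like modifier induced by interferon gamma, at 283 and 466 CPM, against 3.0 and 4.1 in general capillary-like ECs. The remaining groups were artery-like ECs (109 and 79), type I interferon-high ECs (597 and 221), proliferating ECs (100 and 53) and lymphatic-like ECs (31 and 16), and 342 and 159 ECs of low depth were left unnamed. The small classes took different shares of the ECs in the 2 libraries, since vein-like ECs were 4.28% of control and 10.5% of Dnmt1iECKO ECs and Ubd-high ECs 4.78% and 8.03%. Differences between classes are described without a test, because the cells of a library are not replicates.

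**Figure D1:**
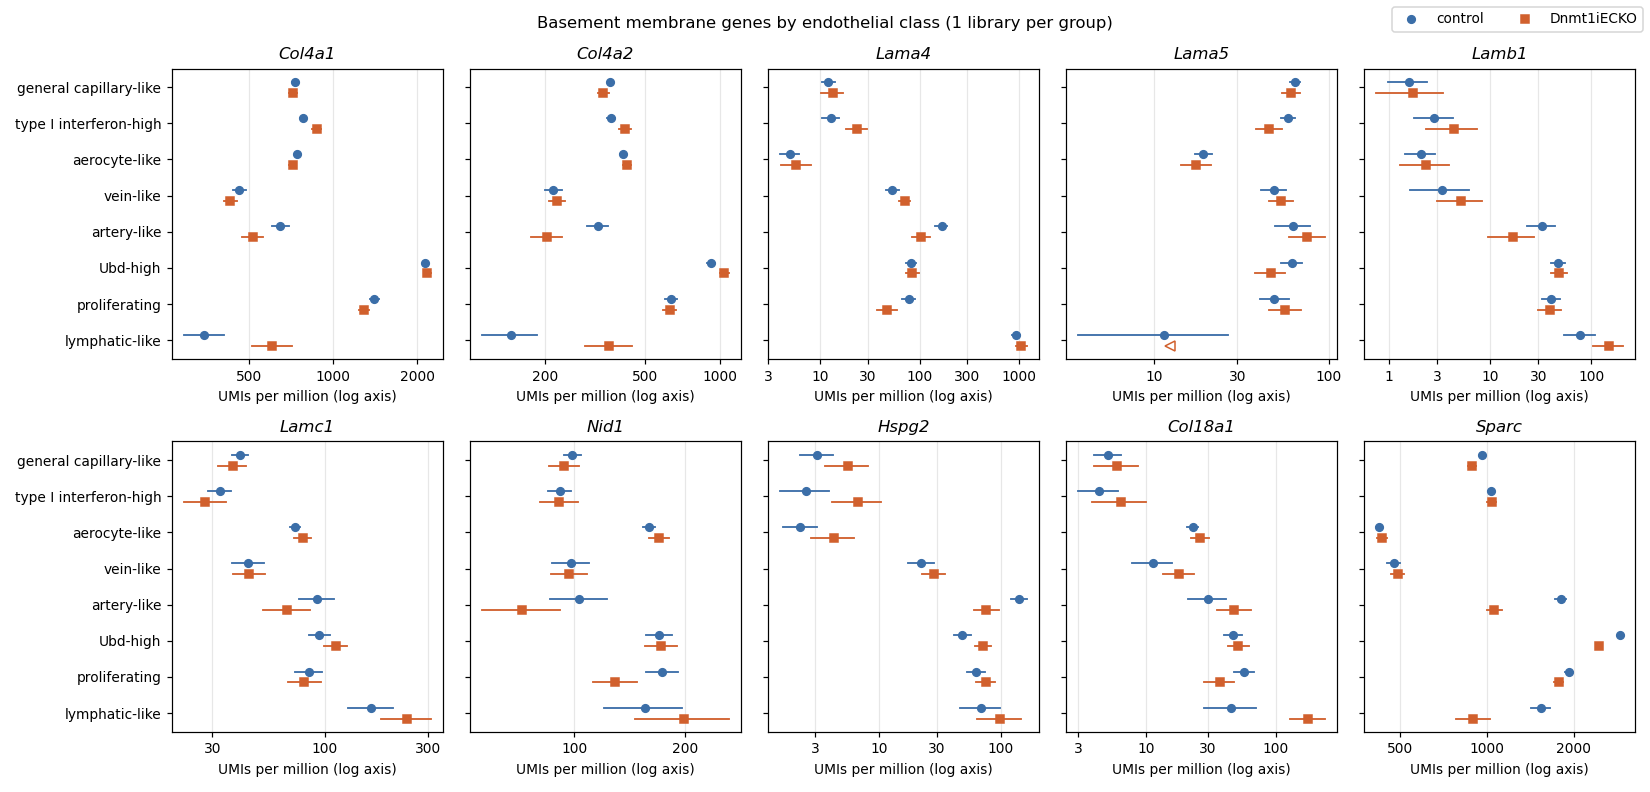
Level of each of the 10 members in the endothelial classes, in CPM on a log axis, with control and Dnmt1iECKO libraries as separate points and 95% Poisson intervals as bars; the open triangle marks 0 UMIs of Lama5 in Dnmt1iECKO lymphatic-like ECs, drawn at the level of 3 counts. The Ubd-high class holds the highest Col4a1, Col4a2 and Sparc of both libraries, Lama4 is highest in the lymphatic-like class, and Lama5 stays between 45.6 and 75.2 in the named classes other than the aerocyte-like and lymphatic-like ones.

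Ubd-high ECs carried more basement membrane RNA than the capillary classes in both libraries. Against general capillary-like ECs of the same library, 9 of the 10 members were at least 1.5-fold higher in control and 9 in Dnmt1iECKO ECs, and the exception was Lama5. Of all genes with at least 100 UMIs over both classes, 10.6% were that much higher in control and 11.6% in Dnmt1iECKO ECs. The median log2 difference of the members was 1.58 in control and 1.60 in Dnmt1iECKO ECs. Both the count and the median include Lamb1, Hspg2 and Col18a1, which reach the minimum of 100 UMIs through the Ubd-high ECs. These genes therefore add no weight to the comparison with all genes. The other members at least 1.5-fold higher were Col4a1, Col4a2, Sparc, Lama4, Lamc1 and Nid1.

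Among the collagen IV chains, Col4a1 stood at 2144 CPM in control Ubd-high ECs and 727 in control general capillary-like ECs, a 2.95-fold difference, and at 2180 and 718 in the Dnmt1iECKO library, a 3.04-fold difference. Col4a2 showed 2.52-fold and 3.04-fold differences. Sparc stood at 2897 against 958 in control and at 2442 against 887 in Dnmt1iECKO ECs, which is 3.02-fold and 2.75-fold. For these abundant genes the Ubd-high intervals lay apart from those of every other named EC class in both libraries.

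Other members were at or near the level of free RNA in capillary ECs, so that their levels are given without a fold. Lamb1 stood at 47.5 CPM in control Ubd-high ECs, from 155 UMIs, against 1.56 in general capillary-like ECs, from 22 UMIs, and at 48.2 against 1.72 in Dnmt1iECKO ECs. B cell-like cells held Lamb1 at 2.36 and 1.01. Hspg2 stood at 48.4 and 71.6 in Ubd-high ECs against 3.11 and 5.59 in general capillary-like ECs (B cell-like cells 3.54 and 0.673), and Col18a1 at 47.2 and 51.6 against 5.09 and 6.02 (B cell-like cells 5.31 and 2.02). In both libraries these 3 genes reach the minimum of 100 UMIs through the Ubd-high ECs. Lama4 was 6.76-fold and 6.35-fold higher, from 12.1 and 13.3 in general capillary-like ECs. Lamc1 (2.33-fold and 3.02-fold) and Nid1 (1.72-fold and 1.83-fold) differed less. Lama5 stood at 0.952-fold and 0.761-fold of its general capillary-like level. In thinned cells a median of 11 control and 10 Dnmt1iECKO UMIs per 2000 came from the members in Ubd-high ECs, against 4 and 3 in general capillary-like ECs. Markers of pericytes were not higher in the Ubd-high class. The 10 pericyte markers summed to 14.7 and 14.3 CPM there, with 4 of 10 at 0 in each library, against 29.0 and 18.9 in general capillary-like ECs, and Notch3 was at 0 in both libraries. The 7 smooth muscle markers summed to 12.6 and 50.8 CPM in Ubd-high ECs, against 18.5 and 10.5 in general capillary-like ECs, and their part in the Dnmt1iECKO values was not tested.

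Proliferating ECs were the next highest class for collagen IV, with Col4a1 at 1405 and 1288 CPM and Col4a2 at 637 and 629. Sparc stood at 1926 and 1770 in them, Hspg2 at 62.9 and 75.2 and Lamb1 at 40.1 and 38.9. Compared with general capillary-like ECs, 9 members in control and 8 in Dnmt1iECKO ECs were at least 1.5-fold higher in this class. Of all genes with at least 100 UMIs over both classes, 18.5% and 18.1% were. The member counts had no such minimum and include Lamb1, Hspg2 and Col18a1, which had few UMIs in general capillary-like ECs. Lamb1 came from 91 UMIs against 22 in control and from 62 against 8 in Dnmt1iECKO ECs.

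The capillary partners of the alveolus differed in the make-up of their membrane genes more than in collagen IV. Aerocyte-like ECs stood at 741 and 715 CPM of Col4a1, close to the 727 and 718 of general capillary-like ECs. They carried less Sparc (0.440-fold and 0.488-fold), less Lama5 (0.298-fold and 0.287-fold) and less Lama4 (0.410-fold and 0.434-fold) than general capillary-like ECs, and more Col18a1 (22.9 and 26.3 against 5.09 and 6.02 CPM), Lamc1 (1.80-fold and 2.12-fold) and Nid1 (1.62-fold and 1.81-fold). Thus 3 members were at least 1.5-fold higher and 3 at least 1.5-fold lower in each library, where 12.1% of all genes in control and 11.0% in Dnmt1iECKO ECs were higher and 13.4% and 11.2% were lower. Type I interferon-high ECs, which resembled general capillary-like ECs in Kit and Bmp6, stood at 780 and 872 of Col4a1, 1030 and 1039 of Sparc and 58.6 and 45.6 of Lama5.

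Vein-like ECs had low collagen IV and Sparc. Col4a1 stood at 460 and 427 CPM in them, 0.633-fold and 0.595-fold of the general capillary-like level, and Sparc at 474 and 489. Lama4 went the other way at 53.3 and 70.6, which is 4.41-fold and 5.30-fold of the general capillary-like level, and Hspg2 stood at 22.3 and 28.4 against 3.11 and 5.59. Over general capillary-like ECs, 4 members were at least 1.5-fold higher and 3 at least 1.5-fold lower in each library. Of all genes with at least 100 UMIs over both classes, 9.80% and 10.3% were that much higher and 12.8% and 13.2% lower. The member count had no such minimum, and its 4 were Lama4, Hspg2, Lamb1 and Col18a1. The last 3 were at or near the level of free RNA in general capillary-like ECs. Lamb1 came from 10 UMIs against 22 in control and from 16 against 8 in Dnmt1iECKO ECs.

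Lymphatic vessels have a thin and broken basement membrane, and the lymphatic-like ECs had their own mixture. Lama4 stood at 931 and 1054 CPM in them, with artery-like ECs next at 166 and 103, while Col4a1 stood at 345 in control, the lowest of the named EC classes, and at 604 in Dnmt1iECKO, above the artery-like and vein-like classes. The 31 control and 16 Dnmt1iECKO lymphatic-like cells gave 5 and 0 UMIs of Lama5, where 3 counts correspond to 12.4 CPM in the Dnmt1iECKO cells. This class was 0.863% of control and 1.08% of Dnmt1iECKO EC UMIs, and it gave 25.7% and 25.0% of the Lama4 UMIs of all ECs.

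The chains of each trimer were also set against the rest of their family, since a laminin needs 1 chain of each kind. Of the collagen IV UMIs of ECs, 66.6% in control and 66.2% in Dnmt1iECKO were Col4a1 and 33.0% and 33.5% Col4a2. The alpha chains were more mixed. Lama1, a laminin chain best known from early embryonic and epithelial membranes and no member here, made up 41.6% and 42.7% of laminin alpha UMIs of ECs, ahead of Lama5 (32.5% and 25.3%) and Lama4 (22.8% and 26.6%). It was 56.7% and 60.5% of the alpha chain UMIs of Ubd-high ECs, at 187 and 206 CPM. Aerocyte-like ECs had mostly Lama5 (54.2% and 45.9%), and lymphatic-like ECs nearly only Lama4 (97.8% and 97.7%). Artery-like ECs had Lama1 at only 3.24 and 4.18 CPM, and their alpha chains were Lama4 (52.3% and 34.6%), Lama3 (26.8% and 38.8%) and Lama5 (19.6% and 25.2%).

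The beta chains also differed between the classes. Lamb2, the beta chain of mature vessels, was 95.8% and 96.0% of laminin beta UMIs in general capillary-like ECs, 93.6% and 91.9% in aerocyte-like ECs and 90.4% in Dnmt1iECKO vein-like ECs. In Ubd-high ECs Lamb1 took 70.8% and 70.3%, and in lymphatic-like ECs 77.3% and 85.7%. Proliferating ECs were between, at 44.8% and 47.7%. The level of Lamb2 itself was lower in Ubd-high ECs, at 19.0 and 20.4 CPM against 36.8 and 41.3 in general capillary-like ECs. Lamc1 was 91.9% and 92.0% of the gamma chain UMIs of all ECs.

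**Figure D2:**
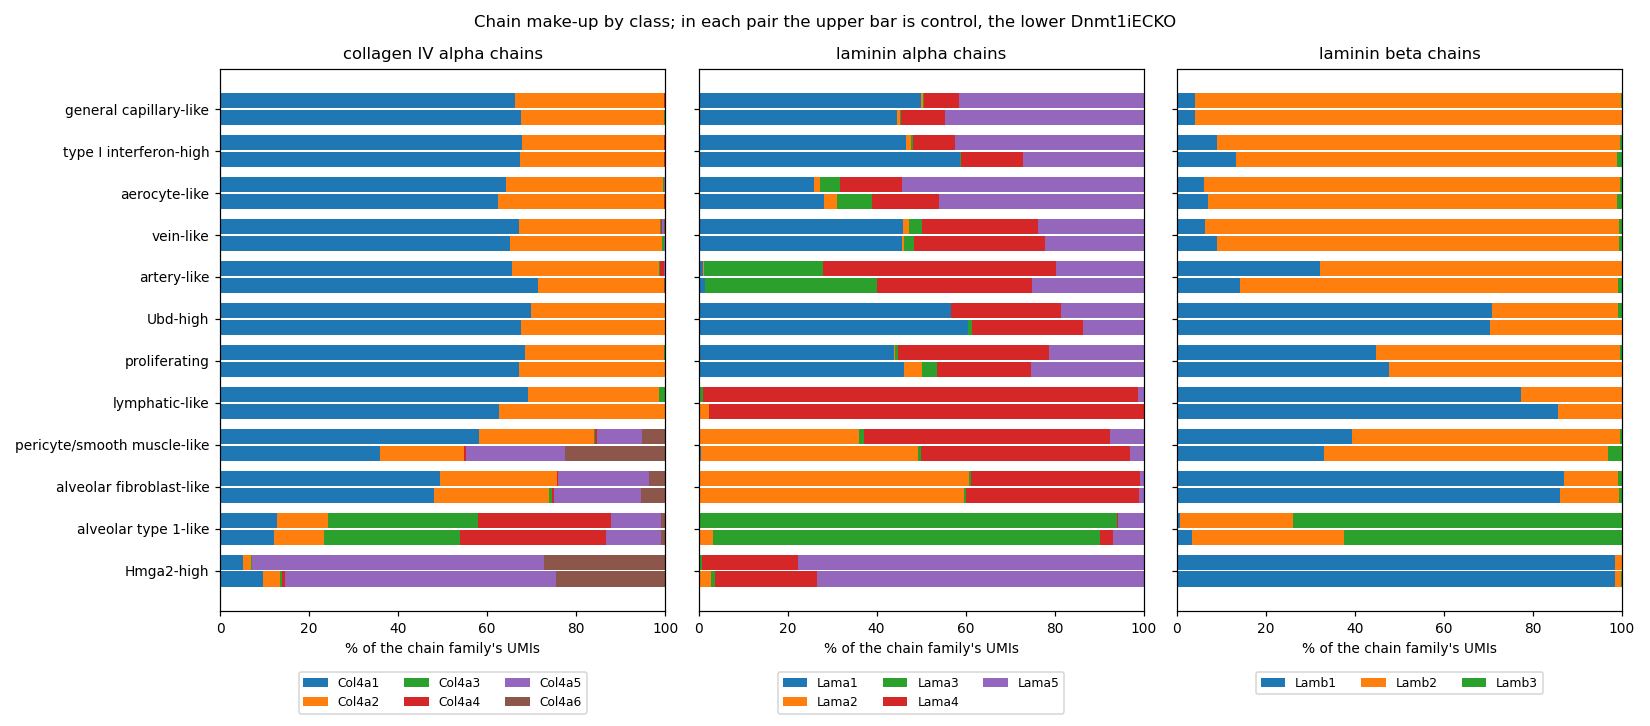
Share in percent of the UMIs of collagen IV, laminin alpha and laminin beta chain families taken by each chain, by cell class, with the control library as the upper and the Dnmt1iECKO library as the lower bar of each pair. Lamb1 holds 70.8% and 70.3% of laminin beta UMIs in Ubd-high ECs while Lamb2 holds 95.8% and 96.0% in general capillary-like ECs, and Col4a3 and Col4a4 appear in alveolar type 1-like cells.

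Across the 25 combinations of endothelial cluster and library with at least 20 cells, members varied together to different degrees. These values are descriptions, since clusters of a library share depth and free RNA. Col4a1 and Col4a2 had the closest levels (Pearson r of 0.96 on log2 of CPM plus 10), followed by Lamb1 and Hspg2 (0.89), Lama4 and Hspg2 (0.86), and Lama4 and Lamb1 (0.81). Lamc1 went with Col18a1 (0.80) and Nid1 (0.73). The lowest value, a weak one, was that of Lama5 and Nid1 (-0.36). Within the single cells of the general capillary-like class, the Spearman correlation of Col4a1 and Col4a2 was 0.17 in control and 0.12 in Dnmt1iECKO cells, and within the Ubd-high class, where both genes have more UMIs, it was 0.45 and 0.34. In vein-like ECs it was 0.22 and -0.00050. Of 9523 genes with at least 500 UMIs in ECs, the 2 most like the mean of the members were members themselves, Lamb1 (0.94) and Hspg2 (0.91), which are part of that mean. The 10 closest other genes were Tnfaip8l1, Gnl3 and Cd82 (each 0.90), Gja1 (0.88), Arhgap18 and Plxnd1 (each 0.87), Nr5a2 and Mrpl17 (each 0.86), and Tmem173 and Slc25a5 (each 0.85). Nid1 was the 2647th gene in that order, at 0.31.

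**Figure D3:**
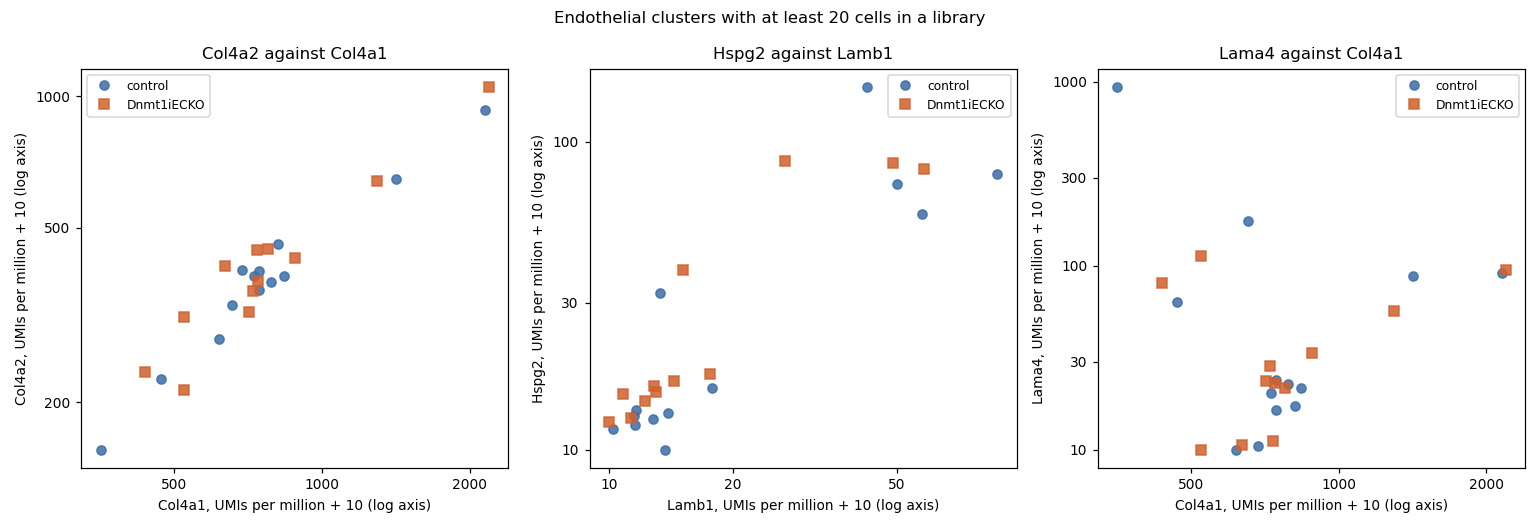
Levels of pairs of members in 25 combinations of endothelial cluster and library, in CPM plus 10 on log axes, 1 point for each combination, coloured by library. Col4a1 and Col4a2 follow a line (r of 0.96), whereas Col4a1 and Lama4 do not vary together.

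Summed over all ECs, Hspg2, Lamb1, Lama4 and Col18a1 had higher levels in Dnmt1iECKO than in control. Sparc, Nid1 and Lama5 differed by less than the counting error and the collagen IV pair by little. The share of thinned ECs with a UMI of Lamb1 was not higher in Dnmt1iECKO. The log2 ratio of Dnmt1iECKO to control was 0.86 (0.69 to 1.02) for Hspg2, 0.59 (0.36 to 0.81) for Lamb1, 0.55 (0.43 to 0.66) for Lama4 and 0.46 (0.30 to 0.61) for Col18a1. It was 0.06 for Col4a1, 0.09 for Col4a2 and 0.11 for Lamc1, each with an interval above 0, and 0.01 for Sparc, -0.02 for Nid1 and -0.04 for Lama5. In all, 8 of 10 members were higher and 2 lower, the median was 0.10, and 2 members (Hspg2 and Lamb1) were at least 1.5-fold higher and 0 at least 1.5-fold lower. Of 12238 genes with at least 100 UMIs over both libraries, 46.8% were higher. At least 1.5-fold higher were 5.02% of them and at least 1.5-fold lower 2.34%.

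The share of each EC class moved with these differences. Artery-like, vein-like, Ubd-high, proliferating and lymphatic-like ECs together held 20.1% of control and 36.7% of Dnmt1iECKO EC UMIs. The same classes gave 83.9% and 86.6% of the Hspg2 UMIs, 78.9% and 87.3% of those of Lamb1 and 76.6% and 82.8% of those of Lama4, but 29.3% and 46.1% of those of Col4a1. When the Dnmt1iECKO classes were weighted by their shares in the control library, the log2 ratio was 0.30 for Hspg2, 0.09 for Lamb1, 0.08 for Lama4, 0.25 for Col18a1 and -0.12 for Sparc, and 0 members were 1.5-fold higher. Without the Ubd-high, vein-like and artery-like clusters the ratio moved the other way, to 1.06 for Hspg2 and 0.76 for Lamb1. What these 2 genes owe to the class shares was not tested further. Both libraries were sorted once, so the shares of cells have no replicate check either.

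Within the large classes the members stood close in the 2 libraries. In general capillary-like ECs, 8 members had at least 100 UMIs over both libraries, 2 were higher and 6 lower in Dnmt1iECKO, 0 were past 1.5-fold, and the median log2 ratio was -0.07, where 1.72% of all genes were at least 1.5-fold higher and 2.28% lower. Col4a1 stood at 727 (713 to 741) and 718 (694 to 743) in them, and Sparc at 958 and 887. In aerocyte-like ECs 6 of 8 members were higher and 2 lower, with 0 past 1.5-fold and a median of 0.07, where 1.97% and 2.33% of all genes were past it. Hspg2, which was under the minimum of 100 UMIs in general capillary-like ECs, stood at 3.11 and 5.59 there and at 2.28 and 4.29 in aerocyte-like ECs. In vein-like ECs 6 of 8 members were higher and 2 lower, with 0 past 1.5-fold and a median of 0.05 (1.87% and 2.30% of all genes). Of all genes, 47.0% were higher in Dnmt1iECKO in general capillary-like, 48.4% in aerocyte-like and 46.4% in vein-like ECs. Lama4 was the vein-like member whose interval lay above 0, at 53.3 and 70.6 CPM and a log2 ratio of 0.40 (0.10 to 0.71), beside Col18a1 at 11.3 and 18.1, which had fewer than 100 UMIs.

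Ubd-high ECs had like levels of most members in the 2 libraries. Of their 10 members 8 were higher and 2 lower in Dnmt1iECKO, with 0 past 1.5-fold and a median of 0.04, where 2.31% of all genes were at least 1.5-fold higher and 1.99% lower. Col4a2 stood at 920 and 1040 CPM (log2 ratio 0.18, 0.10 to 0.25) and Hspg2 at 48.4 and 71.6 (0.56, 0.24 to 0.89). Sparc stood at 2897 and 2442 (-0.25, -0.29 to -0.20) and Lama5 at 61.3 and 46.4 (-0.40, -0.75 to -0.05). Among type I interferon-high ECs, Lama4 was the only member of the 7 with enough UMIs that was past 1.5-fold higher, at 12.9 and 23.5 and a log2 ratio of 0.87, where 1.54% of all genes were; 4 of the 7 were higher and 3 lower. Among proliferating ECs 2 of 10 members were higher and 8 lower, and Lama4 (77.5 and 47.0) and Col18a1 (57.2 and 37.0) were at least 1.5-fold lower, where 3.10% of all genes were. In lymphatic-like ECs, with few cells, 5 of 6 members were higher, 2 at least 1.5-fold, and Sparc was lower (1536 and 893). Of all genes in that class, 5.00% were at least 1.5-fold higher and 10.5% lower. All genes were higher in Dnmt1iECKO in 50.1% of cases in Ubd-high, 47.3% in type I interferon-high, 48.2% in proliferating and 47.2% in lymphatic-like ECs.

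**Figure D4:**
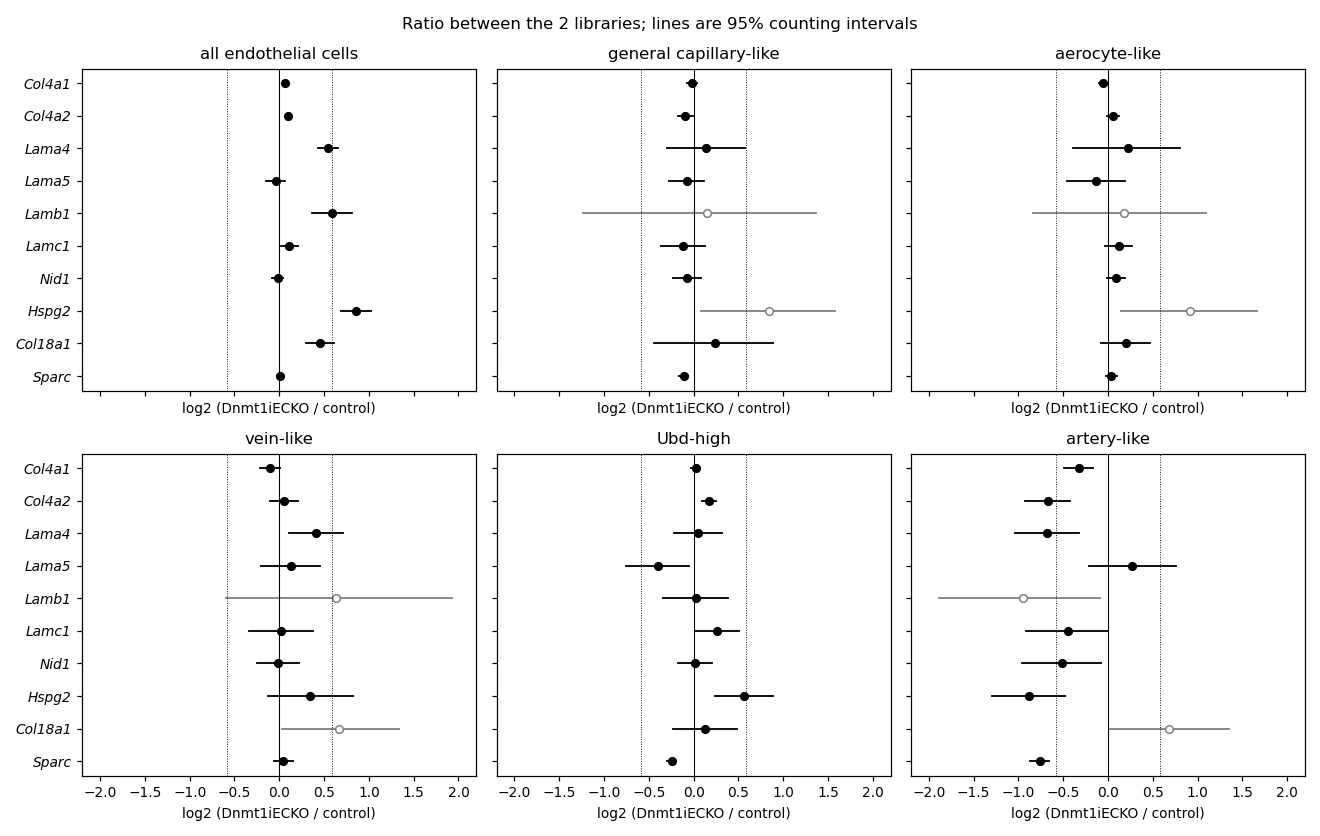
The log2 ratio of Dnmt1iECKO to control for each of the 10 members by cell class, with exact counting intervals as bars; dotted lines mark 1.5-fold in each direction and open grey points mark genes with fewer than 100 UMIs over both libraries. Members with at least 100 UMIs lie within 1.5-fold in the capillary, vein-like and Ubd-high classes, with Hspg2 (0.56) and Lama5 (-0.40) the farthest from 0 in Ubd-high ECs, and 7 of 8 lie below 0 in artery-like ECs.

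Artery-like ECs also had most members lower in Dnmt1iECKO. Of 8 members with enough UMIs 7 were lower and 1 higher, where 47.5% of all genes were higher, and the median log2 ratio was -0.59. At least 1.5-fold lower were 4 members (Col4a2, Lama4, Hspg2 and Sparc), where 5.87% of all genes were. Of all genes, 4.46% were at least 1.5-fold higher. Sparc stood at 1799 CPM in control and 1059 in Dnmt1iECKO cells, Hspg2 at 141 and 76.2 (log2 ratio -0.88, -1.30 to -0.48), Lama4 at 166 and 103 and Col4a2 at 324 and 204. Markers of other cells moved with this class. The 10 pericyte markers summed to 307 CPM in control and 71.0 in Dnmt1iECKO artery-like ECs, with 0 and 6 of them at 0, and to between 14.7 and 63.9 in the other named EC classes of the control library. Rgs5 stood at 199 and 55.4, Pdgfrb at 12.9 and 1.04 and Notch3 at 14.6 and 0. The 7 smooth muscle markers summed to 111 and 42.8, and the venous gene Selp stood at 112 and 564.

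When cells with any UMI of Rgs5, Notch3, Pdgfrb, Cspg4, Kcnj8 or Acta2 were left out, 73 control and 67 Dnmt1iECKO artery-like ECs remained. In these Col4a1 stood at 453 and 512 (log2 ratio 0.18), Col4a2 at 225 and 203 (-0.14) and Sparc at 1264 and 1009 (-0.33), while Hspg2 stood at 105 and 56.9 (-0.88) and Nid1 at 110 and 70.2 (-0.65). Only Hspg2 and Nid1 were then at least 1.5-fold lower. With classes set from the markers of single cells in place of clusters, the artery-like median was 0.14 and 0 members were at least 1.5-fold lower. Of 13 alternatives, the other 12 kept the sign of the median and left it within its counting interval. Most of these reused the same clusters. Clusters made after centring each library held 115 control and 344 Dnmt1iECKO artery-like ECs, against 109 and 79 in the main setting, so they are another set of cells. The cause of the reversal was not tested.

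Cells other than ECs in the sort held their own mixtures of the members. Pericyte- and smooth muscle-like cells (62 control and 89 Dnmt1iECKO) were led by smooth muscle genes such as Acta2 and Myh11. A cluster that mixed endothelial and pericyte markers was not used, so these values are not those of capillary pericytes alone. The class carried Lama4 at 398 and 497 CPM, Sparc at 3196 and 1985 and Col18a1 at 243 and 162. Col4a1 stood at 730 (680 to 783) in control and 341 (307 to 378) in Dnmt1iECKO cells of this class, a log2 ratio of -1.10 (-1.28 to -0.92), and Col4a2 at 322 and 178. Of 9 members with enough UMIs 7 were lower and 2 higher, where 46.3% of all genes were higher. Of the members 3 were at least 1.5-fold lower and 1 (Hspg2, 91.7 and 157) at least 1.5-fold higher, where 9.45% and 7.78% of all genes were. The pericyte markers moved with them, summing to 2749 and 1191 CPM with Rgs5 at 990 and 276, whereas the smooth muscle markers summed to 14867 and 15983. The 10 general endothelial markers summed to 1703 CPM in control and 516 in Dnmt1iECKO cells of the class. Whether endothelial RNA or the mixture of pericytes and smooth muscle cells in the class had a part in the ratios was not tested.

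Alveolar fibroblast-like cells (190 and 257) carried Col4a1 at 433 and 432 CPM, Lama4 at 402 and 413, Lamb1 at 213 and 240 and Sparc at 4906 and 4303. Their laminins differed from those of ECs, with Lama2 at 60.7% and 59.4% of alpha chain UMIs and Lamb1 at 87.1% and 86.0% of beta chain UMIs. Of their 10 members 5 were higher and 5 lower in Dnmt1iECKO, where 47.9% of all genes were higher. Of these members 0 were past 1.5-fold (2.68% and 2.16% of all genes). Collagen-rich fibroblast-like cells (27 and 67) had the highest Nid1 of all cell classes described here, at 382 and 461, and mesothelial-like cells (50 and 76) the highest Sparc, at 6712 and 5303.

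Alveolar type 1-like cells (54 and 33), the flat epithelium that faces the capillary across the fused membrane, carried as much collagen IV of the vessel type as many ECs, with Col4a1 at 655 and 639 CPM and Col4a2 at 585 and 583. The ratio of the pair was 1.12 and 1.10 in them, against 2.02 and 1.97 in ECs. Most of their collagen IV belonged to other chains, as Col4a3 made up 33.8% and 30.6% and Col4a4 29.9% and 32.7% of it. Hspg2 stood at 158 and 190, Lama3 took 93.9% and 86.9% of alpha chain UMIs, and Nid1, at 8.07 and 10.4, was lower than in any named EC class. Lamc1 was higher in the Dnmt1iECKO library (76.1 and 126, log2 ratio 0.73), the 1 member of 5 with enough UMIs past 1.5-fold, where 6.05% of all genes were. Alveolar type 2-like cells (117 and 57) had less collagen IV, with Col4a1 at 220 and 275. All 5 of their members with enough UMIs were higher in Dnmt1iECKO, where 56.3% of all genes were. Of these members 0 were past 1.5-fold (6.09% of all genes).

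A group of large cells (120 control and 199 Dnmt1iECKO, with a median of 80948 and 86765 UMIs) was set apart by Hmga2 at 1892 and 1748 CPM, with Prrx1 at 310 and 334 and Twist1 at 173 and 159. Of the 12 melanoma markers, which include these 3 genes, 5 were at 0 in control and 3 in Dnmt1iECKO. The melanocyte genes Mlana, Dct and Tyrp1 were at 0 in both libraries, while all other markers of the list had UMIs in Dnmt1iECKO. These putative tumor cells are therefore called Hmga2-high. They carried little vessel-type collagen IV (Col4a1 at 14.5 and 34.5, Col4a2 at 5.37 and 13.6) and instead Col4a5 (65.6% and 60.8% of collagen IV UMIs) and Col4a6 (27.2% and 24.5%). By contrast, Lamb1 at 278 and 277, Hspg2 at 234 and 243 and Col18a1 at 609 and 565 were higher than in any EC class. Of 10 members 7 were higher and 3 lower in Dnmt1iECKO, where 51.7% of all genes were higher. Of the members 2 (Col4a1, log2 ratio 1.25, and Col4a2, 1.34) were at least 1.5-fold higher, where 2.58% of all genes were. The level of Col4a1 in B cell-like cells, 19.5 and 20.2, is close to that of the control Hmga2-high cells.

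**Figure D5:**
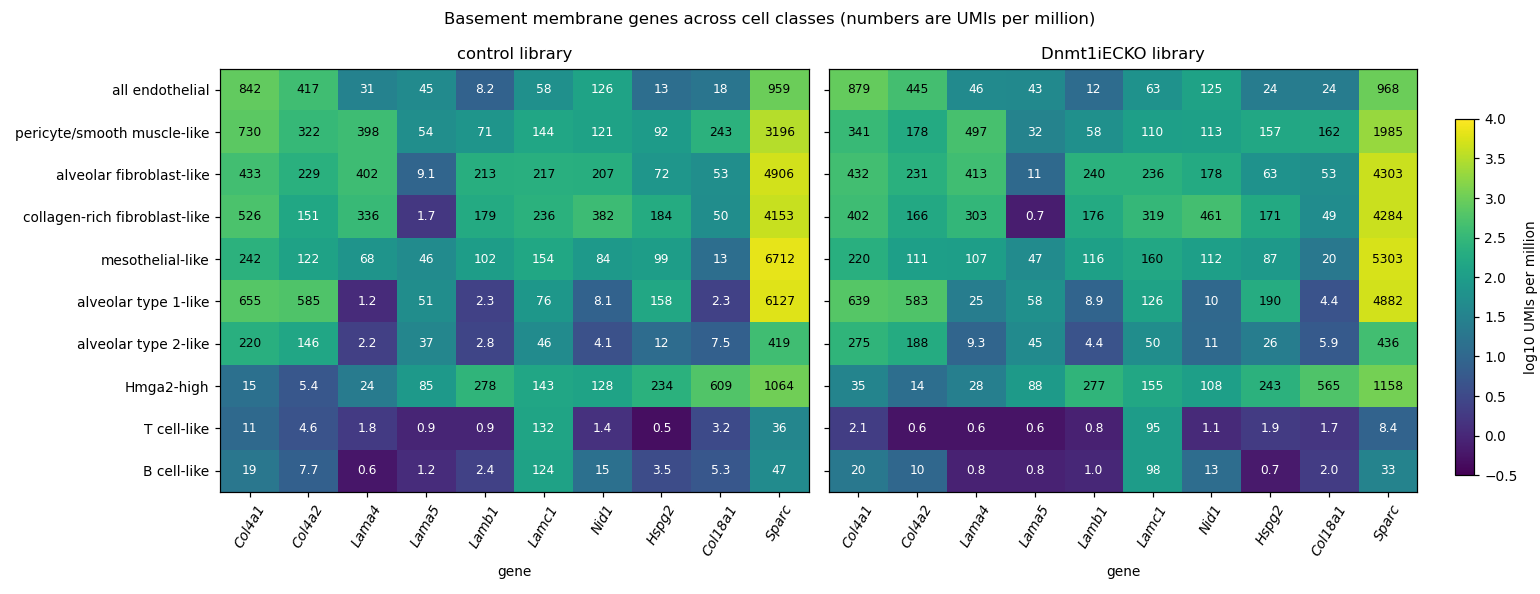
Heatmap of the level of the 10 members by library in all ECs together and in the other cell classes, coloured by log10 of CPM with the CPM printed in each field. Among these rows, Sparc is highest in mesothelial-like and alveolar type 1-like cells, Col4a1 in all ECs and Col18a1 in Hmga2-high cells. Lama4 is highest in alveolar fibroblast-like cells in control and in pericyte- and smooth muscle-like cells in Dnmt1iECKO.

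Other lists of matrix genes were counted in all ECs in the same way. Of 28 further basement membrane genes, 17 had at least 100 UMIs, of which 12 were higher and 5 lower in Dnmt1iECKO, with 6 at least 1.5-fold higher, 0 at least 1.5-fold lower and a median log2 ratio of 0.36, against 5.02% and 2.34% of all genes. They were led by Lama3 (3.37 and 7.52 CPM), a laminin chain of epithelia, the latent TGF-beta binding protein gene Ltbp4 (37.1 and 65.4), Fbln2 (13.6 and 22.6) and Col15a1 (20.7 and 33.9). Among 14 of 15 matrix receptors 6 were higher and 8 lower, with 2 at least 1.5-fold higher, the integrin chains Itgb4 (5.73 and 14.5), which binds laminin, and Itgb3 (7.93 and 14.2). The next receptors by size of the ratio were Gpc4 (3.17 and 2.15) and Itgav (46.6 and 65.8).

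Genes for collagen folding and cross-linking (15 of 18 with enough UMIs) were lower more often than higher, 11 against 4, with 1 at least 1.5-fold lower and a median of -0.04, where 46.8% of all genes were higher and 2.34% at least 1.5-fold lower, so the list stood near the background. That gene was Loxl3, a collagen cross-linking enzyme, at 2.76 and 1.61, and P4ha1, a subunit of collagen prolyl hydroxylase, stood at 91.4 and 66.5. Among 18 of 19 proteases and inhibitors 14 were higher and 4 lower, 4 at least 1.5-fold higher (5.02% of all genes) and 1 lower, with Mmp2, which cleaves collagen IV, at 3.33 and 7.12, Htra1 at 2.09 and 3.58, Adamts4 at 28.5 and 49.0 and the metalloproteinase inhibitor Timp4 at 1.75 and 0.672. All 10 of 13 interstitial matrix genes with enough UMIs were higher in Dnmt1iECKO ECs, 4 at least 1.5-fold (5.02% of all genes), among them Tnc (1.89 and 4.21), Fn1 (7.15 and 14.2), Col5a2 (30.2 and 46.4) and Col1a1 (log2 ratio 0.95). These interstitial genes, several of which are typical of fibroblasts, summed to 64.2 and 96.8 CPM of ECs. The 10 markers of collagen-rich fibroblasts moved with them, from 20.6 to 35.3 CPM, and without cells holding RNA of interstitial collagen, Dcn or Pdgfrb 3 members were at least 1.5-fold higher. Within general capillary-like ECs 13 of the further basement membrane genes had enough UMIs, with 10 higher, 3 lower and 0 past 1.5-fold, whereas 5 of 12 proteases and inhibitors were higher and 7 lower, and 0 of 2 interstitial genes were higher. Within Ubd-high ECs 4 of 8 further basement membrane genes and 6 of 14 proteases and inhibitors were higher.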

How the data were processed

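Live CD31+CD45- cells were counted with the 10x Genomics GEM-X 3′ assay. The deposited values are UMI counts per gene and cell that the authors made with Cell Ranger 9.0.1 on mm10, as filtered matrices. Cells with under 500 detected genes or over 10% mitochondrial UMIs were removed, as were simulated-doublet calls at 0.4% per 1000 cells (257 control, 263 Dnmt1iECKO). The rest were clustered (2000 variable genes without the members, 30 components, 20 neighbours, resolution 2; igraph 0.11.9), giving 54 clusters, 13 of them endothelial and 9 of mixed markers that were not used. Classes were named from marker lists, and the naming thresholds were set after the clusters were seen. Counts were summed by class and library and scaled to CPM. Levels have exact Poisson intervals, ratios have exact conditional intervals, and the floor is 3 counts. A gene entered a comparison of libraries with at least 100 UMIs in both together. Between classes, the share of all genes took those with at least 100 UMIs over both classes, whereas the count of members had no minimum. With 1 library per condition no test was made. A gene counts as past the threshold at 1.5-fold. The ratio code was tested on simulated data. The members and lists were chosen with earlier results of these data known. Beyond the members, the text names up to 4 genes of each list with the largest absolute ratio, the 10 genes most like the members, and checks of labels and other cells. Python 3.11.15, numpy 2.4.6, scipy 1.17.1 and pandas 2.3.3 were used. Alternatives covered doublet rate, filters, scaling, clustering, gating and class composition.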

Additional observations from a re-analysis of the deposited data

Results flagged for a closer look

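The log2 ratio of Dnmt1iECKO to control went in opposite directions in different EC classes for 2 members by at least 1.5-fold each way, among members with at least 100 UMIs and with counting intervals apart from 0. Col4a2 had a log2 ratio of 1.30 in lymphatic-like ECs, of which there were 31 control and 16 Dnmt1iECKO cells, and of -0.67 in artery-like ECs. Lama4 had a log2 ratio of 0.87 in type I interferon-high ECs, and of -0.68 in artery-like and -0.72 in proliferating ECs. With 1 library per condition these differences between classes were not tested, and the pericyte markers that differ between the artery-like cells of the 2 libraries move with the artery-like values.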

How the results depend on the processing

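No paired analysis was possible because each condition has 1 library, and for the same reason no library could be left out. The median log2 ratio of the members over all ECs was 0.10 and lay between 0.05 and 0.16 in 16 alternatives: it was 0.048 as a mean over cells and 0.045 with the class composition of control. The number of members at least 1.5-fold higher was 2; it was 1 with doublets called at 0.8% per 1000 cells, 0 with the class composition of control and 1 without cells that had a mural UMI. The aerocyte-like (0.07) and Ubd-high (0.04) medians moved by less than the counting error in 13 and 12 alternatives. The general capillary-like median of -0.07 was 0.45 with clusters made after centring each library and 0.16 with classes from the markers of single cells; the vein-like median of 0.05 was -0.27 with the latter, and the artery-like median of -0.59 was 0.14. The number of artery-like members at least 1.5-fold lower was 4, against 2 without cells with interstitial collagen, Dcn or Pdgfrb, 2 without cells with a mural UMI and 0 with classes from single-cell markers. The median difference of Ubd-high from general capillary-like ECs was 1.58 in control, 1.44 as a mean over cells and 1.01 with classes from single-cell markers; in Dnmt1iECKO it was 1.60 and 1.10 with the latter. The cause of these shifts was not tested, except where the construction (class composition, cells left out) gives it. Of 160 values of single members over all ECs, 136 moved by less than the counting error and 24 moved by more; 11 had the other sign, none of them for a member past 1.5-fold. With the gate on Cdh5, Pecam1 and Ptprc alone Col4a1 was at -0.16 and Col4a2 at -0.12, where 16.0% of control and 29.1% of Dnmt1iECKO UMIs came from non-endothelial clusters and 14.2% and 12.8% from mixed ones. Clusters made after centring had no Ubd-high class. The mural alternative, the one without the Ubd-high, vein-like and artery-like clusters, and all alternatives for artery-like ECs, for counts past 1.5-fold and for the Ubd-high difference were chosen after seeing the data. Depth limits Lamb1 in general capillary-like ECs, which had 22 and 8 of its UMIs.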
